A study of Mus musculus with 6 samples.

Results

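Semaphorins, plexins and neuropilins were examined as 10 genes of the deposited table of the mouse cardiac outflow tract (OFT), out of 28777 genes listed. They were chosen by symbol, through the Ensembl identifiers of the table, and are 5 ligands (*Sema3a*, *Sema3c*, *Sema3d*, *Sema3e* and *Sema6d*), 3 plexins (*Plxna2*, *Plxna4* and *Plxnd1*) and 2 neuropilins (*Nrp1* and *Nrp2*). All 10 were in the table and passed the filter on low counts. Bulk RNA-Seq was carried out on 6 libraries of E13.5 embryos, 3 with the label Notch1+/-; Nos3-/- (one *Notch1* allele and both *Nos3* alleles mutated) and 3 with the label wildtype (Notch1+/+; Nos3+/+ littermates). Each library is a pool of 3 micro-dissected OFTs of genotyped embryos, 18 OFTs in all, and both alleles are carried by every cell of the embryo, so the libraries do not tell in which cells a difference arose. The mice were on a C57BL/6J background. The comparison asks which transcripts differed between the labels before the OFT malformations of the compound mutant are seen.

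Semaphorins are secreted or membrane-bound guidance cues that are read by plexins, single-pass receptors whose cytoplasmic part acts on small GTPases and on the cytoskeleton. Secreted class 3 semaphorins mostly bind neuropilins, which have no signalling domain of their own and which pair with A-type plexins or with Plexin-D1, whereas Sema3e binds Plexin-D1 directly. Neuropilins are also co-receptors of vascular endothelial growth factor (VEGF). In the OFT this system is known for guiding cardiac neural crest cells, which carry *Plxna2* and are attracted by *Sema3c*, and for endothelial *Plxnd1* and *Nrp1*, whose loss in mice leaves the common arterial trunk undivided.

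Levels are given as CPM, the counts of a gene per 1000000 counts of the library, after scaling of the libraries by the trimmed mean of M values (TMM). Differences are log2 fold changes of the mutant label over the wildtype label from the quasi-likelihood test of edgeR. Its p-values were adjusted by the Benjamini-Hochberg method over 28157 genes, and a gene was called where the adjusted p did not exceed 0.05. The p-values measure the spread between pools of OFTs. In bulk tissue, fewer cells of a type and less RNA per cell cannot be told apart. The libraries held between 34729103 and 44387490 counts, so that 3 counts corresponded to 0.0675 to 0.0924 CPM. *Notch1* was at 74.3, 88.2 and 83.6 CPM in the libraries labelled wildtype and at 155, 161 and 139 CPM in those labelled mutant, opposite to the loss of an allele that the label names. It was called by edgeR (log2 fold change 0.89, SE 0.10, adjusted p = 0.0313) and in 9 of 16 alternative settings. *Nos3* was at 31.8, 47.2 and 48.1 CPM against 22.1, 22.0 and 20.4 CPM and was not called (log2 fold change −0.98, SE 0.15, edgeR adjusted p = 0.128), but 4 of 16 alternative settings called it. One of these was the replicate block that pairs libraries of the same number, with a log2 fold change of −0.95 and an edgeR adjusted p of 0.000271, where the settings spanned 9.42e-06 to 0.576. The directions below are therefore those of the labels.

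Markers of several cell types differed between the labels. The summed level of 10 myocardial markers was 30738 to 45036 CPM under the wildtype label and 20787 to 30022 CPM under the mutant label, with 8 of 10 at an unadjusted p under 0.05, all lower under the mutant label. For 8 mesenchymal markers, it was 4214 to 8141 CPM against 7601 to 9686 CPM, with 6 of 8 higher at that p. For 10 endothelial markers, it was 1067 to 1423 CPM against 1227 to 1312 CPM, with 3 of 10 higher at that p. Neuronal markers summed to 11.6 to 23.7 CPM against 26.9 to 35.5 CPM, a gap carried by *Tubb3* (4.56 to 9.67 CPM against 14.6 to 18.5 CPM). Without it, the other 6 summed to 7.09 to 17.0 CPM against 12.3 to 17.2 CPM, with 0 of 6 at that p. Neural crest and glial markers summed to 23.8 to 37.9 CPM against 33.4 to 41.5 CPM. Blood markers summed to 4225 to 10202 CPM under the wildtype label and to 5108 to 5386 CPM under the mutant label, with 5 of 7 lower at that p. The 8 smooth muscle markers did not go 1 way: at that p *Myh11* and *Smtn* were higher and *Cnn1* lower under the mutant label. Liver markers summed to 1.33, 94.6 and 25.9 CPM in wildtype replicates 1 to 3 and to 1.03 to 4.99 CPM under the mutant label. At that p, 6 of 6 were lower under the mutant label. Markers of lung and gut endoderm were at or near 0 (at most 0.585 CPM in sum). The part of tissue composition in the values below was not tested. The fits with a marker covariate do not test it, because the myocardial and mesenchymal markers themselves went with the label.

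None of the 10 genes was called by edgeR (0 of 10; 6 of 28157 genes in all, 0.0213%), and 3 of 10 had an unadjusted p under 0.05, where 16.1% of all genes had one. These 3 were *Sema3a*, lower under the mutant label, and *Sema3e* and *Nrp2*, higher. DESeq2's Wald test called 1 of 10 (*Sema3a*) and limma-voom 0 of 10. DESeq2 called 4.05% of the 18327 genes to which it gave an adjusted p. The groups did not overlap for 1 of 10 genes, *Nrp2*, against 19.6% of all genes. The median log2 fold change of the 10 genes was 0.04, beside 0.01 for all genes. In all 3 same-numbered pairs *Sema3a*, *Plxna4* and *Nrp1* were lower under the mutant label and *Sema3d*, *Sema3e* and *Nrp2* higher, which makes 6 of 10 genes with 1 direction, against 38.7% of all genes. The shares with a small unadjusted p and with 1 direction lay above those of all genes and the share without overlap below it, on so few genes that nothing is drawn from them.

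**Figure D1:**
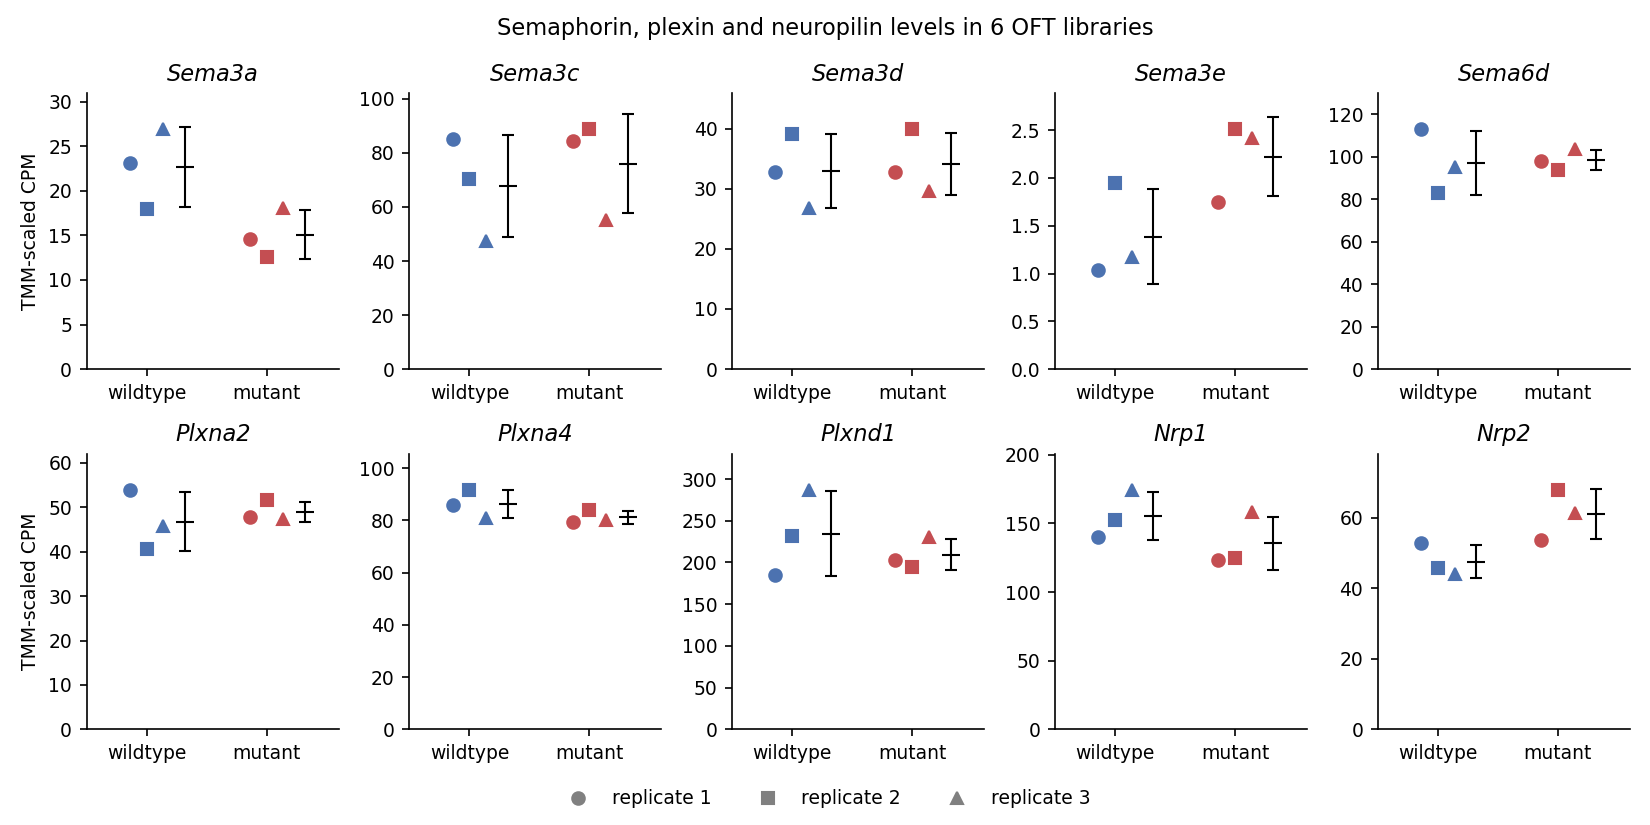
TMM-scaled CPM (vertical axes from 0) of the 10 genes in the 3 libraries labelled wildtype (blue) and the 3 labelled mutant (red), with marker shapes for the replicate numbers and black bars for the mean ± SD (n = 3). Only for *Nrp2* do the groups not overlap (44.1 to 52.8 CPM against 53.8 to 67.9 CPM), and the replicates 3 of both labels are the lowest of their group for *Sema3c* and *Sema3d*.

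Promoter windows of 4 of these genes are shown. *Sema3a* and *Nrp2* were taken because their values differ in direction. *Sema3c* and *Plxna2* were taken as known targets of the zinc finger factor Gata6 in the OFT. None of the 4 was called by edgeR, and a link between the windows and the values was not tested. The windows run from 250 bases before to 50 bases after a transcript start and were taken from RefSeq on GRCm38.p6 (mm10), 5′ to 3′ on the plus strand, on which these genes lie. They are *Sema3a* at chr5:13396534-13396833, *Sema3c* at chr5:17574566-17574865, *Nrp2* at chr1:62703067-62703366 and *Plxna2* at chr1:194619579-194619878. Capitals mark CpG dinucleotides in the first 3 and the match to a GATA motif in the last.
Sema3a: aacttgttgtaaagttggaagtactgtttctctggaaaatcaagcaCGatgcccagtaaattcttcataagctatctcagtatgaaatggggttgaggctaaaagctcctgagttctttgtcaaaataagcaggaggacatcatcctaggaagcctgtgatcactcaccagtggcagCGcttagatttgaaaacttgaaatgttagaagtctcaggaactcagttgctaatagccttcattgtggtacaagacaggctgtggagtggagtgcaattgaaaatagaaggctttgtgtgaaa
Sema3c: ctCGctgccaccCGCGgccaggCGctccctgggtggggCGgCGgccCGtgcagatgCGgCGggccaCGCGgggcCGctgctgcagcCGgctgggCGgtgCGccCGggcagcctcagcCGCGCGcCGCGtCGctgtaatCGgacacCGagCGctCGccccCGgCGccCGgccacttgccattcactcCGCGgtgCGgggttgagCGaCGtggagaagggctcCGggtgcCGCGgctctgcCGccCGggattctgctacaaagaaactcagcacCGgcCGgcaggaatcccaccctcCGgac
Nrp2: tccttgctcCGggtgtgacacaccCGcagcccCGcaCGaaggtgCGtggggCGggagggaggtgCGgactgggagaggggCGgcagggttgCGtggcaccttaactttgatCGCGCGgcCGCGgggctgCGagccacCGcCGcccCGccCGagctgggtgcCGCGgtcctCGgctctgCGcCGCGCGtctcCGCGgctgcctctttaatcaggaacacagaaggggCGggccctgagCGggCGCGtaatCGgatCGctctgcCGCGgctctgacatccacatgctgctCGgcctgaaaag
Plxna2: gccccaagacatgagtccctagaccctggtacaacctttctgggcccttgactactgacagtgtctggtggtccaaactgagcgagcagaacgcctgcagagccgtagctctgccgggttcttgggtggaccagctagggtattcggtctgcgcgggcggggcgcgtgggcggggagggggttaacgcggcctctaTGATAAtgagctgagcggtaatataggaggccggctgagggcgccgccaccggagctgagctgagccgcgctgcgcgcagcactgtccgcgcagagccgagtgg

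The *Sema3a* window holds 2 CpG and has a GC content of 41.3%. It surrounds a RefSeq start that lies inside the gene as GENCODE draws it, downstream of the outermost start. By contrast, the *Sema3c* window holds 42 CpG (GC content 75.7%) and the *Nrp2* window 37 (70.7%), where the median over all 32851 mouse windows is 7 CpG and 52.7%. A GATA motif (AGATAA or TGATAA, either strand) was found in 18.61% of all windows and in 2 of the 10 windows of 9 of these genes. One is in the *Plxna2* window, 54 bases before the start, and the other in a second *Sema6d* window. The core letters of the Notch effector RBPJ, TGGGAA on either strand, are in 25.56% of all windows. They occur in 1 of the 10 windows, that of *Sema6d* at chr2:124089719-124090018, 249 and 79 bases before the start. Neither motif contains the other. These are matches of letters, not sites, and *Plxna4* has no window in the table.

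Among the ligands, *Sema3a* (ENSMUSG00000028883, mm10 chr5:13125414-13602565, plus strand) encodes a secreted repellent of axons that acts through Nrp1 and A-type plexins and patterns cardiac sympathetic nerves. It was at 23.1, 17.9 and 26.9 CPM in wildtype replicates 1 to 3 and at 14.6, 12.6 and 18.1 CPM in mutant replicates 1 to 3. The libraries labelled mutant were low, but the groups overlapped, since mutant replicate 3 lay just above wildtype replicate 2. The means were 22.7 ± 4.51 CPM and 15.1 ± 2.79 CPM (SD, n = 3 each). The log2 fold change was −0.58 (SE 0.17, 95% interval −0.96 to −0.21), and the edgeR adjusted p was 0.197, so that *Sema3a* was not called. A two-sided exact permutation test gave p = 0.2, where 3 against 3 libraries cannot go below 0.1. All 3 same-numbered pairs had a lower level under the mutant label, by log2 differences of −0.64, −0.50 and −0.56.

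The call of *Sema3a* turned on the model. It was called by DESeq2 (log2 fold change −0.59, adjusted p = 0.0495), by edgeR with a replicate block that pairs libraries of the same number (−0.58, adjusted p = 0.00588, with 5.60% of all genes called), and by the block together with offsets for GC content and length (−0.63, adjusted p = 0.00267, with 7.31% of all genes called). Over 16 alternative settings the adjusted p of *Sema3a* ran from 0.00267 to 1.00, and the log2 fold change from −0.73 to −0.17. With the block on the replicate numbers of the descriptions, in which wildtype 2 and 3 are exchanged, the edgeR adjusted p was 0.167. The value nearest to 0, −0.17, came from the fit with the mean of the myocardial markers as a covariate, and with the mean of the mesenchymal markers it was −0.41. Across the 6 libraries, the log2 CPM of *Sema3a* had a Pearson r of 0.92 with the mean of the myocardial markers, as a description of libraries that also share a label.

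*Sema3c* (ENSMUSG00000028780, chr5:17574281-17730268, plus strand) encodes the attractant of cardiac neural crest cells. Its levels were 85.3, 70.5 and 47.5 CPM under the wildtype label and 84.3, 88.7 and 55.1 CPM under the mutant label. Replicate 3 was the lowest library of each label, and the groups overlapped widely. The log2 fold change was 0.16 (SE 0.21), and its 95% interval of −0.31 to 0.64 leaves room for a difference in either direction. *Sema3c* was not called in any setting. Its sign turned with a marker covariate, to −0.57 with the myocardial and −0.42 with the mesenchymal one. The edgeR unadjusted p was then 0.00191 and 0.0228, and the adjusted p 0.469 and 0.612. Over the 16 settings the adjusted p spanned 0.277 to 0.978. Without wildtype replicate 3, the log2 fold change was −0.04.

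*Sema3d* (ENSMUSG00000040254, chr5:12383385-12588948, plus strand), a ligand known for roles in endothelial patterning of the pulmonary veins, was at 32.8, 39.1 and 26.9 CPM against 32.9, 39.9 and 29.7 CPM. The groups overlapped almost entirely, and libraries with the same number were close to each other. This gave a log2 fold change of 0.05 (95% interval −0.28 to 0.38).

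*Sema3e* (ENSMUSG00000063531, chr5:14025276-14256689, plus strand), the ligand that repels vessels through Plexin-D1, was the least abundant of the 10 genes. It was at 1.03, 1.95 and 1.17 CPM against 1.75, 2.51 and 2.41 CPM, which rest on 38 to 94 counts. Its levels tended to be high under the mutant label, yet wildtype replicate 2 lay above mutant replicate 1. Its log2 fold change of 0.68 (SE 0.30, 95% interval 0.02 to 1.34) had a p of 0.0444 and an adjusted p of 0.299 from edgeR. No setting called *Sema3e*.

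The 4 class 3 genes named so far share chromosome 5 with *Nos3*, one of the mutated genes. They lie at 6.63 (*Sema3c*), 10.1 (*Sema3e*), 10.8 (*Sema3a*) and 11.8 Mb (*Sema3d*) from it, and their log2 fold changes had both signs. Whether sequence linked to the *Nos3* allele took part in these values was not tested.

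*Sema6d* (ENSMUSG00000027200, chr2:124089969-124667770, plus strand) encodes a membrane-bound semaphorin that acts through Plexin-A1 in the developing heart. It was at 113, 82.8 and 95.3 CPM against 98.0, 94.0 and 104 CPM. The libraries labelled mutant all lay within the range of the wildtype label. A log2 fold change of 0.02 was found (95% interval −0.24 to 0.29), turning to −0.05 with the offsets for GC content and length.

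Of the plexins, *Plxnd1* (ENSMUSG00000030123, chr6:115954811-115995005, minus strand), the endothelial receptor of Sema3e and of neuropilin-bound semaphorins, was at 186, 231 and 287 CPM under the wildtype label and at 202, 195 and 230 CPM under the mutant label. Wildtype replicate 3 stood highest and wildtype replicate 1 lowest, so that the groups overlapped. Its log2 fold change was −0.17 (SE 0.15, 95% interval −0.49 to 0.16), and *Plxnd1* was not called by edgeR (adjusted p = 0.616). With the replicate block and the offsets for GC content and length together, *Plxnd1* was called (log2 fold change −0.37, adjusted p = 0.0113, the lowest in a span that reached 1.00). That setting called 7.31% of all genes. The sign turned to 0.25 with either marker covariate, and without wildtype replicate 3 the value was 0.0049.

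*Plxna2* (ENSMUSG00000026640, chr1:194618218-194816869, plus strand), the receptor that marks cardiac neural crest cells in the OFT, was at 53.9, 40.6 and 45.7 CPM against 47.7, 51.5 and 47.4 CPM. The libraries labelled mutant again lay within the range of the wildtype label. For *Plxna2* a log2 fold change of 0.06 was found (95% interval −0.19 to 0.32). It turned to −0.03 with the offsets for GC content and length.

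*Plxna4* (ENSMUSG00000029765, chr6:32144268-32588192, minus strand) encodes an A-type plexin that pairs with neuropilins for Sema3a. It was at 86.0, 91.7 and 80.9 CPM against 79.3, 84.1 and 80.3 CPM. The groups overlapped, and the spread was small. A log2 fold change of −0.09 had a 95% interval of −0.29 to 0.12, and it was 0.02 when the libraries were scaled by size only, a scaling that moved the median of all genes to 0.11. *Plxna4* shares 110 exon bases with its antisense gene *Plxna4os3*. The sources used here do not say whether reads were counted by strand, so reads of the pair cannot be told apart.

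The neuropilins pointed in opposite directions. *Nrp1* (ENSMUSG00000025810, chr8:128358604-128503363, plus strand), the co-receptor of Sema3a and of VEGF in endothelial cells, was at 140, 152 and 174 CPM under the wildtype label and at 123, 125 and 158 CPM under the mutant label. Mutant replicate 3 lay within the range of the wildtype label, and the other two below it. The resulting log2 fold change was −0.20 (SE 0.13, 95% interval −0.48 to 0.08, edgeR adjusted p = 0.453). It was 0.12 with the myocardial covariate. The *Nrp1* exons share 80 bases with *Mir1903*.

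*Nrp2* (ENSMUSG00000025969, chr1:62703285-62818695, plus strand), which binds Sema3c and Sema3f and serves lymphatic and venous VEGF signalling, was at 52.8, 45.8 and 44.1 CPM under the wildtype label and at 53.8, 67.9 and 61.2 CPM under the mutant label. Each library labelled mutant was higher than each labelled wildtype, by a narrow margin between the replicates 1. The means were 47.5 ± 4.63 CPM and 61.0 ± 7.06 CPM (SD, n = 3 each). The log2 fold change was 0.36 (SE 0.11, 95% interval 0.11 to 0.61), and the edgeR adjusted p was 0.217. A two-sided exact permutation test gave p = 0.1, the smallest that 3 against 3 libraries allow. *Nrp2* was called by edgeR without wildtype replicate 1 (0.44, adjusted p = 0.0364, the lowest in a span that reached 1.00), a setting that called 9.45% of all genes. With the myocardial covariate the log2 fold change was 0.19.

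The ratio of *Nrp1* to *Nrp2* was formed after these values were seen, and no test is given for it. Per kilobase of exon, *Nrp1* was 3.22, 4.02 and 4.79 times as high as *Nrp2* under the wildtype label and 2.77, 2.23 and 3.12 times under the mutant label. The ratios did not overlap between the labels, with means of 4.01 ± 0.788 and 2.71 ± 0.449 (SD, n = 3 each). With the myocardial covariate, the log2 fold changes of *Nrp1* and *Nrp2* were 0.12 and 0.19 (edgeR unadjusted p = 0.399 and 0.232). With the mesenchymal covariate they were 0.05 and 0.21 (edgeR unadjusted p = 0.707 and 0.137). Both covariates went with the label, so tissue composition and label cannot be told apart here.

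**Figure D2:**
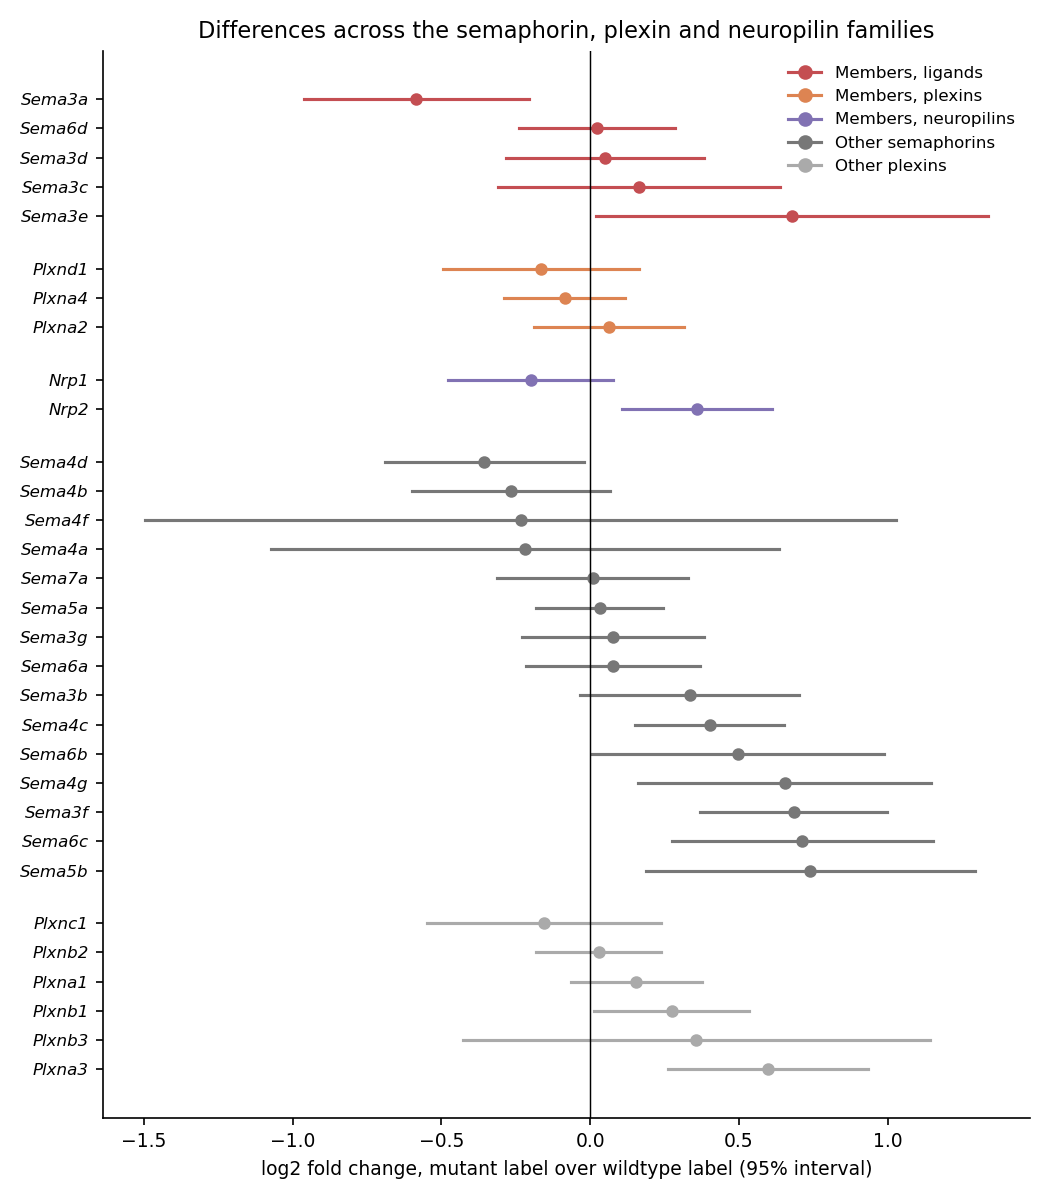
Log2 fold changes of the mutant label over the wildtype label (horizontal axis) with 95% intervals from the edgeR fit, for the 10 genes (coloured by role) and for the other semaphorins and plexins tested (grey). The intervals of *Sema3a* (−0.96 to −0.21), *Sema3e* (0.02 to 1.34) and *Nrp2* (0.11 to 0.61) leave out 0, and those of the other 7 genes span it.

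The abundance of the 10 genes was compared per length, as CPM per kilobase of exon averaged over the 6 libraries. *Plxnd1* was the most abundant at 30.4, followed by *Nrp1* at 14.9, *Sema3c* at 10.1, *Sema6d* at 9.26, *Plxna4* at 5.94, *Nrp2* at 4.58, *Sema3d* at 3.90, *Plxna2* at 2.78, *Sema3a* at 1.36 and *Sema3e* at 0.194 CPM per kilobase. *Plxnd1* and *Nrp1*, receptors known from endothelial cells, thus led the order, and the ligands *Sema3a* and *Sema3e* closed it. The ranges of *Sema3c* and *Sema6d*, of *Plxna4* and *Nrp2*, of *Nrp2* and *Sema3d*, and of *Sema3d* and *Plxna2* overlapped over the 6 libraries, so that the order of these neighbours is not settled. The other neighbours did not overlap. Within the 20 semaphorins tested, the rank by mean CPM per kilobase depended on the label. Under the wildtype label *Sema3c* ranked 1, *Sema6d* 2, *Sema3d* 5, *Sema3a* 14 and *Sema3e* 19, and under the mutant label they ranked 2, 3, 6, 16 and 18. *Sema4c* stood beside the highest of them, at 8.93 CPM per kilobase under the wildtype label and 11.8 under the mutant label, against 9.49 and 10.7 for *Sema3c*, and the ranges of these genes overlapped. Of the 9 plexins, *Plxnd1* ranked 2, *Plxna4* 5 and *Plxna2* 8 in CPM per kilobase under either label.

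**Figure D3:**
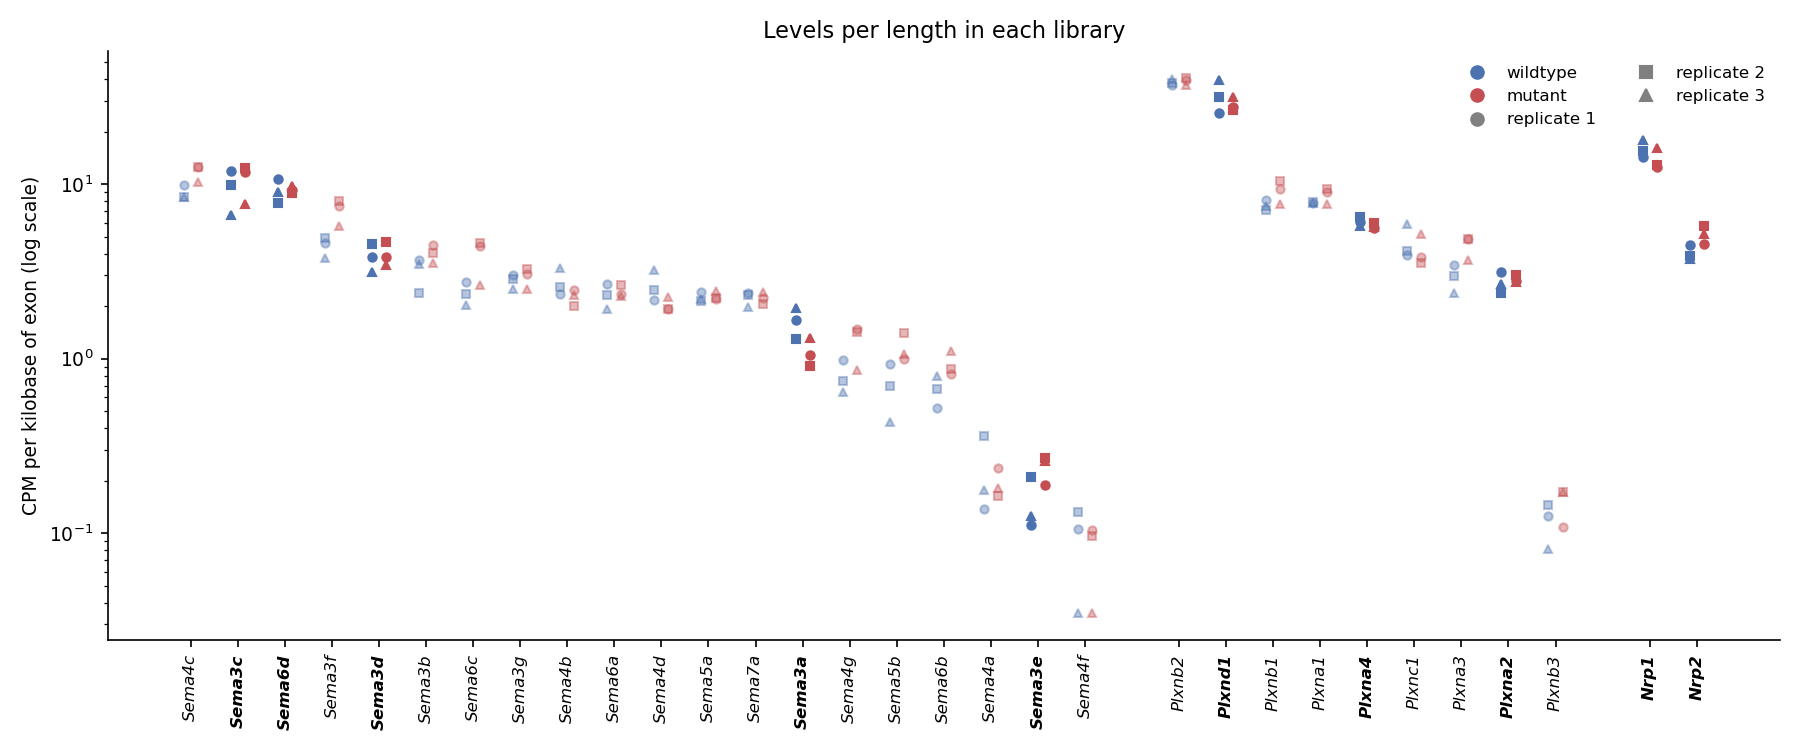
CPM per kilobase of exon (vertical log axis) of all semaphorins, plexins and neuropilins tested, by family and in order of their mean, in the libraries labelled wildtype (blue) and mutant (red), with the 10 genes in solid colour and bold. *Plxnd1* (30.4) and *Nrp1* (14.9) are the most abundant of the 10, and *Sema3e* (0.194) is the least.

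For each of the 10 genes, the marker gene with the closest pattern over the 6 libraries was found among 76 markers by Pearson's r of log2 CPM. These r values are the highest of many over only 6 libraries, which share a label, a pool and a tissue composition, and are given as a description with no test. *Sema3a* was closest to *Ryr2*, the calcium release channel of cardiomyocytes (r = 0.985). *Nrp1* and *Plxnd1* were both closest to *Emcn*, an endothelial sialomucin (r = 0.977 and 0.936). *Emcn* did not stand for its list, since *Nrp1* had an r of 0.50 with the mean of the endothelial markers and of 0.92 with that of the myocardial markers, and *Plxnd1* of 0.79 and 0.80. *Sema3c*, *Sema3d* and *Nrp2* were closest to the smooth muscle markers *Eln* (0.938), *Tagln* (0.989) and *Myh11* (0.895), of which *Tagln* and *Myh11* were themselves low, at 1.69 to 5.15 CPM for *Myh11*. *Plxna2* was closest to the neural crest and glial receptor *Erbb3* (0.888), *Sema6d* to *Ttn* (0.907) and *Sema3e* to *Prph* (0.914). With the list means, *Sema6d* had an r of −0.08 (myocardial) and *Plxna2* of 0.61 (neural crest and glia) and 0.63 (mesenchymal). *Nrp2* had 0.72 (smooth muscle) and 0.90 (neural crest and glia), and *Sema3d* 0.75 (smooth muscle) and 0.78 (neuronal). *Sema3e* had 0.75 (neuronal) and 0.77 (macrophage), and *Sema3c* 0.85 (smooth muscle). A single closest marker thus did not always stand for its list. For *Plxna4* the closest was *Cldn6* (0.801), which was at 0 in 3 libraries and is too sparse to read.

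*Emcn* was at 36.1, 52.8 and 79.3 CPM under the wildtype label and at 31.7, 28.7 and 54.5 CPM under the mutant label. It thus had its highest level in replicate 3 of each label, as did *Nrp1* and *Plxnd1*. *Ryr2* was at 312, 268 and 405 CPM against 212, 192 and 279 CPM, and its groups overlapped as those of *Sema3a* did. *Eln* had its lowest level in wildtype replicate 3, at 757 CPM, against 1455 to 4151 CPM in the others, and *Sema3c* was lowest there as well.

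**Figure D4:**
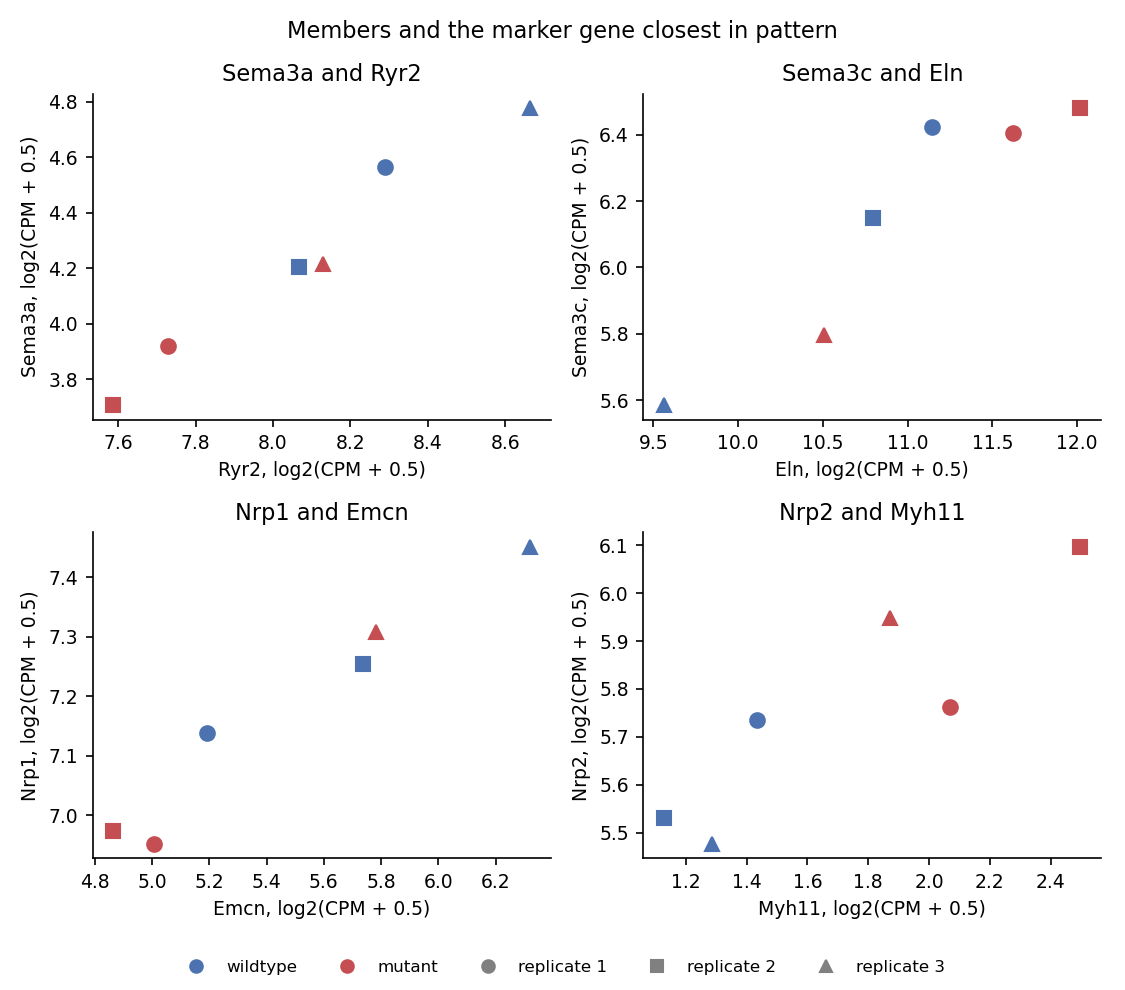
Log2 of CPM plus 0.5 of *Sema3a*, *Sema3c*, *Nrp1* and *Nrp2* (vertical axes) against that of the marker closest to each (horizontal axes), 1 point per library, coloured by label and shaped by replicate number. The points run from low to high together in each panel (r = 0.985, 0.938, 0.977 and 0.895). The labels are mixed along the line for *Sema3c* and *Nrp1*, and for *Sema3a* where mutant replicate 3 lies just above wildtype replicate 2.

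Other genes of the pathway were taken from lists written from general knowledge. Of the 15 other semaphorins, edgeR called 0, and 6 were higher and 1 lower at an unadjusted p under 0.05. The groups of 4 of them were free of overlap, where 16.1% of all genes had such a p and 19.6% no overlap. The median log2 fold change was 0.08. *Sema3f*, a class 3 ligand of Nrp2, was at 23.8, 25.5 and 19.5 CPM under the wildtype label and at 38.9, 41.8 and 30.1 CPM under the mutant label. Its groups did not overlap, and its log2 fold change of 0.68 (SE 0.14) had an edgeR adjusted p of 0.159. *Sema6c* had a log2 fold change of 0.71 (SE 0.20, adjusted p = 0.194) and *Sema4c*, the most abundant of the 15 per length, of 0.40 (SE 0.11, adjusted p = 0.194). DESeq2 called 2 of the 15 (*Sema3f* and *Sema6c*), and edgeR with the replicate block 5 (these and *Sema4c*, *Sema4g* and *Sema5b*). All were higher under the mutant label, where 4.05% and 5.60% of the genes with an adjusted p were called. With the block and the offsets for GC content and length together, *Sema3f* and *Sema6c* were called as higher and *Sema4d* as lower. The calls of the other 3 were lost, and 7.31% of all genes were called. The block by the numbers in the descriptions called 0 of the 15.

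The 6 other plexins tested had 0 calls by edgeR, 2 higher at an unadjusted p under 0.05, 1 without overlap and a median log2 fold change of 0.21, beside 16.1%, 19.6% and 0.01 for all genes. *Plxna3*, an A-type receptor of Sema3f, was at 27.0, 23.5 and 18.7 CPM against 38.0, 38.2 and 28.8 CPM. All libraries labelled mutant were higher, with a log2 fold change of 0.60 (SE 0.15, edgeR adjusted p = 0.188). DESeq2 and the replicate block each called 1 of 6, *Plxna3*, where 4.05% and 5.60% of the genes with an adjusted p were called. *Plxnb1* and *Plxna1* had log2 fold changes of 0.27 and 0.16, and *Plxnb2* of 0.03.

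Of 11 partner receptors and VEGF ligands, edgeR called 0, 2 were higher at an unadjusted p under 0.05, and 2 did not overlap, with a median log2 fold change of 0.08. Both counts are close to the 16.1% and 19.6% of all genes. *Vegfa*, the growth factor that shares Nrp1 with Sema3a, was at 139, 117 and 122 CPM under the wildtype label and at 178, 169 and 189 CPM under the mutant label. The groups were well apart, and the log2 fold change was 0.50 (SE 0.10, edgeR adjusted p = 0.153). DESeq2 called 1 of 11, *Vegfa*, beside 4.05% of the genes with an adjusted p. The replicate block called 2, *Vegfa* and *L1cam*, an adhesion molecule and partner of Nrp1 (log2 fold change 0.88, SE 0.33), beside 5.60%. *L1cam* was low, at 2.32, 1.71 and 0.801 CPM against 3.30, 3.23 and 2.47 CPM. With the block and the offsets for GC content and length together, *Vegfa* was called as higher and *Erbb2* as lower. The call of *L1cam* was lost, and 7.31% of all genes were called. The block by the numbers in the descriptions called 0 of the 11. The hepatocyte growth factor receptor *Met* had a log2 fold change of −0.29, and *Itgb1*, the most abundant of the list per length, of −0.11.

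Intracellular effectors of plexins, 25 genes, had 0 calls by edgeR, 4 higher at an unadjusted p under 0.05 and 8 without overlap, with a median log2 fold change of 0.13. The first count is close to the 16.1% of all genes, and the second stands beside 19.6%. The largest value was that of *Dpysl4*, a collapsin response mediator, at 7.22, 4.34 and 3.54 CPM against 15.7, 14.1 and 9.57 CPM. The groups did not overlap, and the log2 fold change of 1.38 (SE 0.26) had an edgeR adjusted p of 0.134. DESeq2 and the replicate block each called 1 of 25, *Dpysl4*, where 4.05% and 5.60% of the genes with an adjusted p were called. *Dpysl4* is also known in neurons. The neuronal marker *Tubb3* was higher in every library labelled mutant than in any labelled wildtype. The other 6 neuronal markers overlapped, with sums of 7.09 to 17.0 CPM under the wildtype label and 12.3 to 17.2 CPM under the mutant label. Whether neurons took part in the value of *Dpysl4* was not tested. *Arhgef11* and *Mical1* both had log2 fold changes of 0.33, and the abundant *Cfl1* and *Dpysl3* of −0.11 and −0.10. Of the 4 transcription factors known to act on *Sema3c* or *Plxna2*, edgeR called 0, DESeq2 0 and none had a p under 0.05. *Gata6* was at 160, 125 and 115 CPM against 157, 162 and 135 CPM (log2 fold change 0.18), *Foxc2* had a log2 fold change of 0.19, and *Tbx1* was low, at 0.185 to 1.07 CPM.

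**Figure D5:**
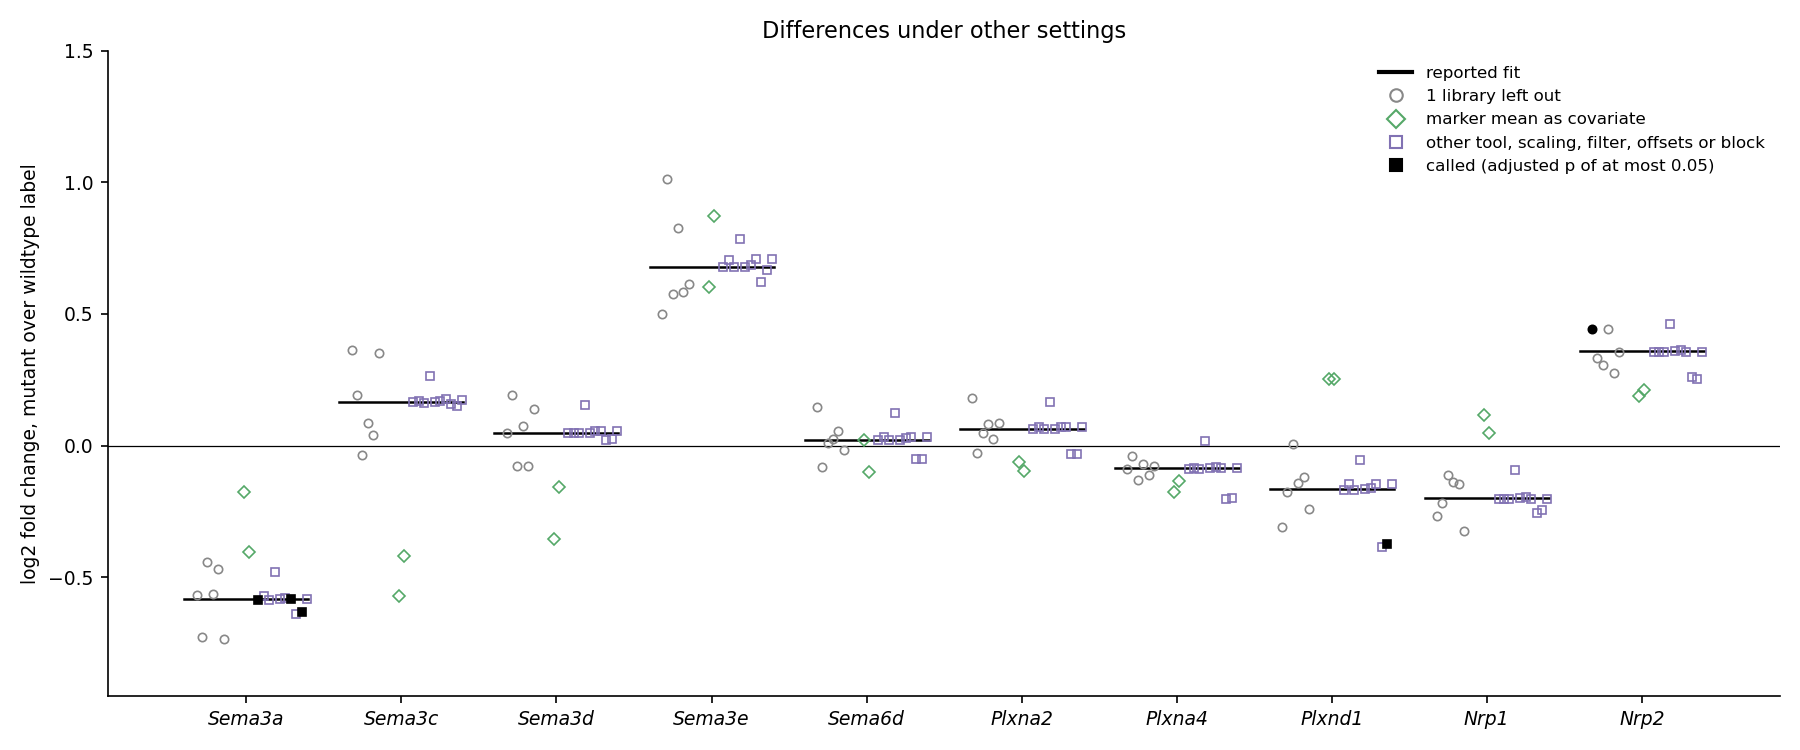
Log2 fold changes of the 10 genes (mutant label over wildtype label, vertical axis) in the reported fit (black line), with 1 library left out (circles), with a marker covariate (diamonds) and under another tool, scaling, filter, offset or block (squares), solid black where the gene was called. *Sema3a* stays below 0 (−0.73 to −0.17) and *Sema3e* and *Nrp2* above 0 in all of them, whereas *Sema3c*, *Sema3d*, *Sema6d*, *Plxna2*, *Plxnd1* and *Nrp1* have values on both sides, and *Plxna4* only through the scaling by library size (0.018).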

How the data were processed

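Bulk RNA-Seq counts were taken as the authors deposited them, as whole-number counts per gene without normalization. Per the labels and the methods, libraries were stranded total RNA depleted of ribosomal RNA, sequenced paired-end. The submitters' processing notes name mm10, TopHat2 2.1.0 and Bowtie2, and the methods of the study name GenomicAlignments 1.22.1. The annotation release, the strand setting and the treatment of overlapping genes are not given in the sources used here.

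Genes with a sum of at most 5 counts (620 of 28777) were left out, following the study's filter. The others were tested in R 4.3.3 with edgeR 4.0.16 (TMM, quasi-likelihood test), with DESeq2 1.42.0 and limma 3.58.1 as alternatives. Single genes were also compared by exact permutation, on log2(CPM + 0.5). Positions, lengths and GC content came from GENCODE on mm10, with 28723 identifiers found there. The code was tested on simulated data. Intervals cover the spread between libraries, and floors of 3 counts cover counting error only.

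The 10 genes, the lists and the tests were chosen with earlier results of these data known. Named are the 10 genes, *Notch1* and *Nos3*, the 3 genes of smallest p and the 2 of highest CPM per kilobase in each pathway list, and the marker closest to each of the 10. Genes named for a call under another setting, for an overlap of exons or among the marker lists beside their sums were chosen after their values were seen. Titles and descriptions give exchanged library numbers for wildtype replicates 2 and 3, and the titles were used. The replicate numbers of the titles, which no label ties to a litter or day, were checked for pairing: deviations from the group means of same-numbered libraries had r of 0.10, 0.15 and 0.46 over 16655 genes of at least 1 CPM, all above the 0.1 set as the limit though the first only just, and wildtype 1 with mutant 2 had a higher r of 0.32 than 2 of them. The check thus does not settle which libraries pair. Values with the replicate block are given where they change a call, and they rest on this unsettled pairing.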

Additional observations from a re-analysis of the deposited data

How the results depend on the processing

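Of the 10 genes, DESeq2's Wald test called 1, edgeR with the replicate block 1, the replicate block with the offsets for GC content and length 2, and edgeR without wildtype replicate 1 called 1, against 0 as reported. In the same order the calls were 2, 5, 3 and 4 of the other semaphorins, 1, 1, 1 and 1 of the other plexins, 1, 2, 2 and 3 of the partner receptors, and 1, 1, 2 and 4 of the effectors. With 1 library left out the counts thus ran from 0 to 1, 0 to 4, 0 to 1, 0 to 3 and 0 to 4. Over all genes, these settings called 742, 1577, 2059 and 2593 genes, against 6 as reported. The replicate block alone changed the call of *Sema3a* and of no other of the 10 genes. A block by the numbers in the descriptions, added with the mesenchymal covariate after the data were seen, called 83 genes, *Dpysl4* among them (1 of the effectors) and 0 of the 10 genes, and its paired deviations of wildtype 3 with mutant 2 and wildtype 2 with mutant 3 had r of −0.49 and −0.12.

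The sign turned for 6 of the 10 genes, and for *Plxna4* only under a scaling that moved the median of all genes to 0.11. The myocardial covariate gave −0.57 for *Sema3c*, −0.35 for *Sema3d*, −0.064 for *Plxna2*, 0.25 for *Plxnd1* and 0.12 for *Nrp1* (log2), and the mesenchymal covariate −0.42 for *Sema3c*, −0.16 for *Sema3d*, −0.10 for *Sema6d*, −0.10 for *Plxna2*, 0.25 for *Plxnd1* and 0.048 for *Nrp1*. The offsets gave −0.052 for *Sema6d* and −0.031 for *Plxna2*, with the block −0.050 and −0.031, and scaling by library size only 0.018 for *Plxna4*. With 1 library left out, *Sema3c* ran from −0.035 to 0.36, *Sema3d* from −0.077 to 0.19, *Sema6d* from −0.080 to 0.15, *Plxna2* from −0.028 to 0.18 and *Plxnd1* from −0.31 to 0.0049. *Notch1* kept its direction and lost its call with the offsets (0.68), with the myocardial covariate (0.83) and in 5 of 6 fits without 1 library. Ranked by CPM without gene length, 5 of the 10 genes changed place. The causes were not tested.

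At 3 pools per label, the 95% intervals of *Sema3c* and *Plxnd1* reach 0.64 and −0.49 on the log2 scale, and *Sema3e*, at 38 to 94 counts, has the widest interval of the 10 genes.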
